A study of Mus musculus with 10 samples.

Results

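Lineage-negative, Kit-positive mouse bone marrow cells that over-expressed a mutant form of ASXL2 were set against the same kind of cells with an empty vector. The form was mutant 1, the first of 3. Mutant 1 was taken from the names of the deposited tables and not from the labels, which gave 2 of the 10 libraries, 1 in each of 2 batches, against 2 empty vector libraries, also 1 in each batch. Names and labels disagree for 4 mutant libraries. The mutant 1 library of batch 1 is labelled mutant 1, batch 1, so that name and label match, but the mutant 1 library of batch 2 is labelled mutant 2, batch 2. In the other direction, a library named mutant 2 is labelled mutant 1, batch 2. Both empty vector libraries have the same construct and batch in name and label. For the batch, the libraries divided by the names and not by the labels, as given below. For the construct, nothing in the files settles which of the 2 designations is right. Every mutant 1 value below therefore holds for the libraries with that name.

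The other 6 libraries entered the same fit. They were 2 of mutant 2, 2 of mutant 3 and 2 of full-length ASXL2, each over-expressed, again 1 per batch by name. All 10 libraries shared the rest of the handling: GFP-positive cells were sorted, expanded in medium with IL3, IL6 and SCF, growth factors for early blood cells and mast cells, and polyA RNA was sequenced. The labels give neither the mutation in mutant 1 nor the vector or the animals. Whether the 2 libraries of a construct are separate cultures is not stated either, so each p-value reflects spread between libraries that may be technical in part or whole. Libraries held between 52422686 and 79320702 estimated counts, and between 15624 and 17240 genes reached 10 counts in a library. Along the first principal component, which took 41.2% of the variance of log2 CPM, the libraries divided by the batch in their names. The library named mutant 2, batch 1 but labelled batch 2 lay at -50.3, with the batch 1 libraries. That named mutant 2, batch 2 but labelled batch 1 lay at 33.2, with those of batch 2. Along the second component, with 16.0%, the mutant 1 libraries stood at 7.02 and 14.4, among those of the other ASXL2 constructs, and the empty vector libraries at -50.4 and -44.2.

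ASXL2 is a chromatin scaffold protein that binds and activates BAP1, a deubiquitinase that removes ubiquitin from histone H2A. The same mark is placed by Polycomb complexes, which keep genes silent. ASXL proteins are known as regulators of blood stem and progenitor cells and as genes mutated in myeloid leukaemia.

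Promoter sequences are shown for 3 genes that the results below turn on, from the RefSeq promoter table (GRCm38.p6, 250 bases before to 50 after the start, on the gene's own strand, 5′ to 3′). Ctsl had the largest rise under the naming rule, Il6st encodes the signalling chain of the receptor for IL6, which was in the medium, and Mcpt8 had one of the largest falls. Capitals mark matches on either strand to the RUNX motif, with the letters TGTGGT. They also mark matches to the E-box, with the letters CACGTG, and no match overlaps another here. The GATA motif, with the letters AGATAA, was searched as well and had no match in these windows.
Ctsl, chr13:64370471-64370770, minus strand: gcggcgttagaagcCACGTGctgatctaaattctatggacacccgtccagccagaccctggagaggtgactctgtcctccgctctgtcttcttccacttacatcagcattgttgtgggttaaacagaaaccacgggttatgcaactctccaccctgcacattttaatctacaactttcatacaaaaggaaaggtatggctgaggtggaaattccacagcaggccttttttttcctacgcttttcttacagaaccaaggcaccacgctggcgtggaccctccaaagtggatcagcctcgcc
Il6st, chr13:112463820-112464119, plus strand: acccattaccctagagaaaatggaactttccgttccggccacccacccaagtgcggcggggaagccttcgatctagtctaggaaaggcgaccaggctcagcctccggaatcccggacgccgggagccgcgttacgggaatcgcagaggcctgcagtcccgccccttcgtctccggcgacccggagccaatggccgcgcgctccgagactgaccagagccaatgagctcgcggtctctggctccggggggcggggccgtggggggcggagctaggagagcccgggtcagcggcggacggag
Mcpt8, chr14:56085148-56085447, minus strand: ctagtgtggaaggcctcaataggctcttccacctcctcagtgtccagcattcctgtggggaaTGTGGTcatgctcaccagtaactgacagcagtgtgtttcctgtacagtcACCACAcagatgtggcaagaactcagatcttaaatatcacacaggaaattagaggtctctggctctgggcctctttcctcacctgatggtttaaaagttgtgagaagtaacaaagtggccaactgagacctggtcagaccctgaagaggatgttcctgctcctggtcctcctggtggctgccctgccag
The Ctsl window holds 1 E-box and 10 CpG dinucleotides, the Il6st window holds 33 CpG and none of these motifs, and the Mcpt8 window holds 2 RUNX matches and 0 CpG. Among 27025 mouse promoters of the same length, 16.9% hold the RUNX motif, 11.4% the GATA motif and 7.24% the E-box, so a match is a description of these letters and not of a bound site.

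Asxl2 itself (ENSMUSG00000037486, mm10 chromosome 12, 3426857 to 3506852) stood at 1547 and 929 CPM in mutant 1, batch 1 first, against 107 and 111 CPM in the empty vector. CPM here is the count scaled to library size after TMM. The groups lay far apart, and the batch 1 library was the higher of the mutant 1 pair. The labels give Asxl2 as over-expressed in every construct but the empty vector, so this rise is part of the design. The log2 fold change was 3.43 ± 0.26 (SE, n = 2 libraries each; adjusted p = 0.00247, Benjamini-Hochberg over all genes, quasi-likelihood test of edgeR), a 10.8-fold rise. Libraries named mutant 2 and mutant 3 ranged from 790 to 1892 CPM, so the level of Asxl2 does not separate mutant 1 from the other mutants. Of the Asxl2 transcripts, ENSMUST00000144247 stood at 563 and 251 TPM (the length-scaled share of transcripts) in mutant 1, against 9.55 and 8.72 TPM in the empty vector. ENSMUST00000153102 stood at 299 and 147 TPM in mutant 1, against 6.37 and 7.63 TPM in the empty vector. Another transcript, ENSMUST00000111215, stood at 11.4 and 8.56 TPM in mutant 1, against 10.2 and 8.31 TPM in the empty vector, and these ranges overlap. The paralogue Asxl1 stood at 99.0 and 96.5 CPM in mutant 1, against 107 and 103 CPM in the empty vector (adjusted p = 0.429), and Bap1 at 74.8 and 79.5 CPM in mutant 1, against 77.05 and 79.03 CPM in the empty vector (adjusted p = 0.938). Asxl3 was too low to be tested. Of the 14 tested members of the list of ASXL and BAP1 complex genes, the over-expressed Asxl2 alone passed the test.

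Against the empty vector, 579 genes rose and 164 fell in mutant 1 at an adjusted p under 0.05, 743 of 17810 genes tested (4.17%, with 3.25% higher and 0.921% lower). Rises were larger than falls. The median log2 fold change was 1.0 among the genes that rose and -0.59 among those that fell, and 287 of the rises but 42 of the falls were past 2-fold. The genes that rose had a median of 4.28 CPM in the empty vector. Of them 148 (25.6%) stood under 1 CPM there, a smaller share than the 31.7% of all genes tested. The genes that fell had a median of 39.7 CPM in the empty vector, against 10.4 CPM over all genes tested. Of the rises 97.9% and of the falls 88.4% were protein-coding genes, against 75.9% of all genes tested. No chromosome stood out by more than the range from 2.62% (chromosome 5) to 6.93% (chromosome 16) of its tested genes called. In all, 741 of the 743 genes moved the same way within both batches, the exceptions being Gm43118 and Ppbp. In 669 the mutant 1 and empty vector libraries did not overlap, where 4914 of all genes tested (27.6%) did not overlap. Both counts are favoured by the choice of these genes with a test on the same libraries, so they are no separate support. The same holds for named genes whose groups are said below to lie apart. The batch was a large part of the spread: without it in the model 26 genes were called, all of them among the 743. With constructs and batches taken from the labels 46 were called, 45 of them among the 743, and 735 of the 743 had the same sign. The count was 163 without the mutant 1 library of batch 1, 246 without that of batch 2, 372 without the empty vector library of batch 1 and 1009 without that of batch 2.

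**Figure D1:**
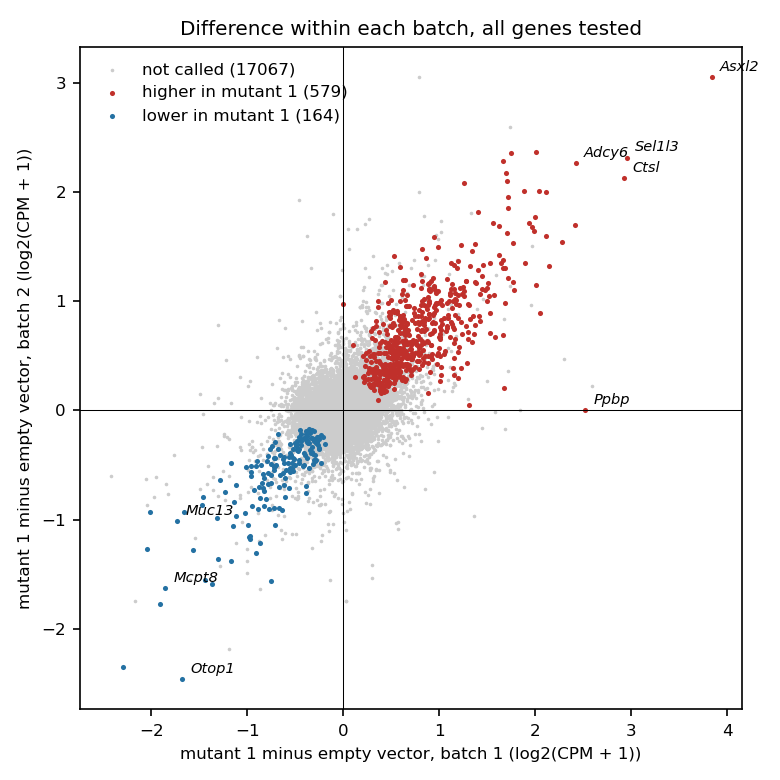
Difference in log2(CPM + 1) between mutant 1 and the empty vector within batch 1 (x axis) and within batch 2 (y axis) for each gene tested, with the 579 genes that were higher in red, the 164 that were lower in blue and the rest in grey. Most called genes lie along the diagonal, while Ppbp (2.52 in batch 1 and 0 in batch 2) and Selp (1.31 and 0.05) lie at the x axis and Gm43118 (0 and 0.98) on the y axis.

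Beside the over-expressed Asxl2, the 14 largest rises among genes of at least 5 CPM in the higher group included proteases, signalling enzymes and proteins of the cytoskeleton. Ctsl, which encodes the lysosomal protease cathepsin L, stood at 12.6 and 7.46 CPM in mutant 1, against 0.791 and 0.934 CPM in the empty vector (log2 fold change 3.44 ± 0.28, SE, n = 2 each; adjusted p = 0.000999 by edgeR). Bmp1, a metalloprotease that processes procollagen, stood at 7.05 and 3.91 CPM in mutant 1, against 0.508 and 0.511 CPM in the empty vector (3.35 ± 0.24; adjusted p = 0.000223). Both genes were near the floor with the empty vector and higher in the batch 1 library of mutant 1. Adcy6, an adenylyl cyclase that makes cyclic AMP, stood at 21.7 and 19.8 CPM in mutant 1, against 3.24 and 3.31 CPM in the empty vector (2.66 ± 0.11). Its values agree closely within each construct, and its adjusted p of 2.21e-05 was the smallest of the 14. Anks6, which encodes a protein of the primary cilium, stood at 4.72 and 5.40 CPM in mutant 1, against 0.546 and 0.584 CPM in the empty vector (3.17 ± 0.30; adjusted p = 0.000989). Hmgn3, a nucleosome-binding protein, stood at 9.72 and 12.99 CPM in mutant 1, against 2.20 and 1.72 CPM in the empty vector (2.53 ± 0.18; adjusted p = 0.000223). For Anks6 and Hmgn3 the batch 2 library of mutant 1 was the higher. Rasgef1a, an exchange factor for Ras-family proteins, stood at 10.1 and 5.05 CPM in mutant 1, against 1.58 and 0.992 CPM in the empty vector (2.52 ± 0.23; adjusted p = 0.000809). Actn1, the actin cross-linker alpha-actinin, stood at 14.7 and 11.5 CPM in mutant 1, against 2.92 and 1.42 CPM in the empty vector (2.64 ± 0.33; adjusted p = 0.00845).

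The other rises had log2 fold changes of 3.20 for Ube2e2, a ubiquitin-conjugating enzyme, 2.86 for Sel1l3, 2.71 for Atrnl1, an attractin-like protein, 2.32 for Slain1, which acts on microtubule growth, 2.29 for Phactr2, a regulator of phosphatase and actin, and 2.21 for Spats2. In none of the 14 did the mutant 1 and empty vector libraries overlap, where 27.6% of all genes tested did not overlap. The choice of called genes with large changes favours this. Sel1l3 showed a wide spread between batches, with 20.1 and 34.9 CPM in mutant 1, against 1.73 and 6.20 CPM in the empty vector. Of the 14, 11 were called in each of the 10 fits that left out 1 library. With constructs and batches by label, 4 of them were called, namely Asxl2, Adcy6, Anks6 and Spats2, and the other 10 had adjusted p from 0.0502 for Ube2e2 and Rasgef1a to 0.108 for Actn1. Without the batch in the model, Asxl2, Bmp1, Anks6, Adcy6 and Hmgn3 alone were called. The rest then had adjusted p by edgeR from 0.0577 for Spats2 to 0.634 for Phactr2. Phactr2 was also not called in the 6 libraries whose name and label match, with a log2 fold change of 2.22 there. Sel1l3 was not called without the mutant 1 library of batch 1 (adjusted p = 0.156) or of batch 2 (0.132), or without the empty vector library of batch 1 (0.0601), by edgeR. Actn1 was lost without the mutant 1 library of batch 1 (0.0861) or of batch 2 (0.0639), as was Phactr2 (0.0699 and 0.0682).

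**Figure D2:**
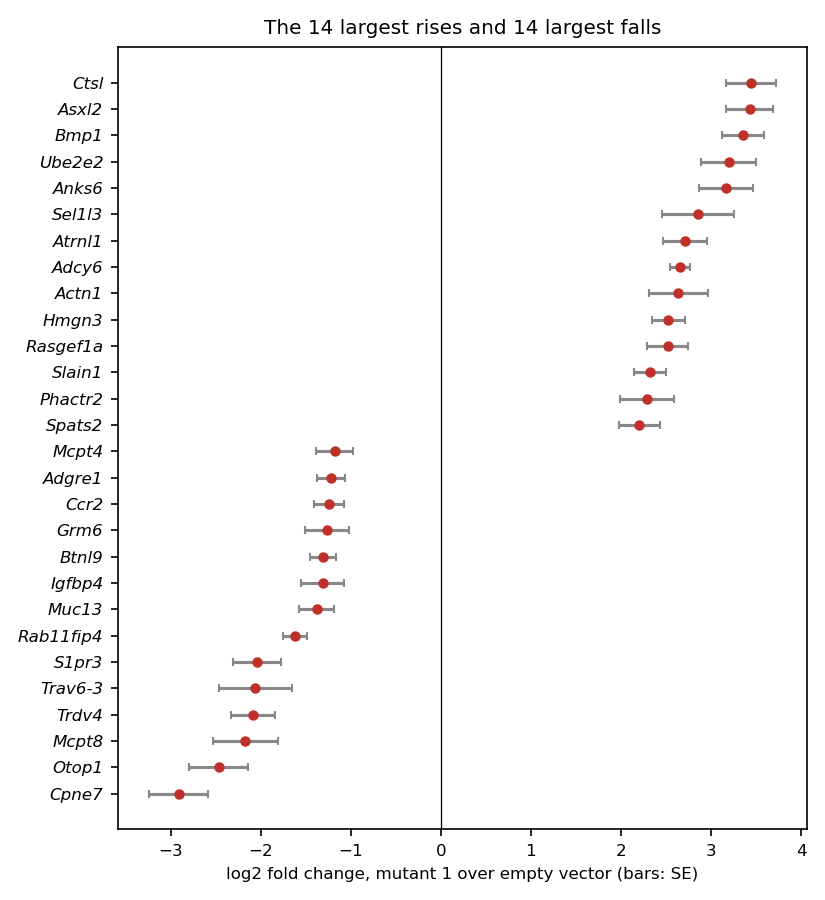
Log2 fold change of mutant 1 over the empty vector (x axis) with its standard error for the 14 top rises and the 14 top falls among called genes of at least 5 CPM in the higher group. The rises reach 3.44 for Ctsl and the falls -2.91 for Cpne7.

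The 14 largest falls included receptors, other membrane proteins and granule proteases. Cpne7, a calcium-dependent membrane-binding copine, stood at 1.05 and 0.485 CPM in mutant 1, against 6.70 and 4.07 CPM in the empty vector (log2 fold change -2.91 ± 0.33; adjusted p = 0.00179 by edgeR). Otop1, a proton channel, stood at 4.26 and 1.39 CPM in mutant 1, against 15.8 and 12.2 CPM in the empty vector (-2.47 ± 0.33; adjusted p = 0.00979). In both, each mutant 1 library lay below each empty vector library. Rab11fip4, an effector of the recycling endosome GTPase Rab11, stood at 6.28 and 8.53 CPM in mutant 1, against 18.7 and 26.9 CPM in the empty vector (-1.62 ± 0.13; adjusted p = 0.000466). S1pr3, a receptor for sphingosine 1-phosphate, stood at 1.66 and 1.12 CPM in mutant 1, against 5.88 and 5.39 CPM in the empty vector (-2.04 ± 0.27; adjusted p = 0.00349). Muc13, a membrane mucin, was the most abundant of the 14, at 67.6 and 150 CPM in mutant 1, against 227 and 304 CPM in the empty vector (-1.38 ± 0.19; adjusted p = 0.016). The groups did not overlap for any of these 5 genes, which their choice as called genes favours.

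Of the granule proteases, 2 were among the 14. Mcpt8, a protease of basophils, stood at 1.53 and 4.46 CPM in mutant 1, against 8.15 and 15.9 CPM in the empty vector (-2.17 ± 0.36; adjusted p = 0.0241 by edgeR). Mcpt4, a mast cell chymase, stood at 6.77 and 19.9 CPM in mutant 1, against 13.6 and 50.7 CPM in the empty vector (-1.18 ± 0.20; adjusted p = 0.0256), so that its groups overlap across batches and separate only within them. Reads of these related proteases can be shared among near-identical copies, which makes their counts uncertain. Mcpt8 was called in 6 and Mcpt4 in 4 of the 10 fits that left out 1 library. For Mcpt8 the adjusted p was 0.187 without the mutant 1 library of batch 1, 0.218 without that of batch 2, and 0.0568 and 0.0522 without the full-length libraries. For Mcpt4 it was 0.0646 and 0.167 without the mutant 1 libraries of batches 1 and 2, 0.178 and 0.0894 without the empty vector libraries, and 0.0644 and 0.0529 without the mutant 3 libraries.

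Ccr2, a chemokine receptor of monocytes, stood at 4.66 and 11.03 CPM in mutant 1, against 14.7 and 19.9 CPM in the empty vector (-1.24 ± 0.17; adjusted p = 0.00412). Adgre1, which encodes the macrophage antigen F4/80, stood at 3.40 and 3.84 CPM in mutant 1, against 7.04 and 10.3 CPM in the empty vector (-1.22 ± 0.16; adjusted p = 0.00329). These were the 2 of 16 tested monocyte and macrophage genes that fell, and 0 of the 16 rose. Over all genes tested 0.921% fell and 3.25% rose, and the counts of every other list below stand beside the same shares. In bulk RNA, fewer cells of a type and less RNA per cell cannot be told apart. The summed level of the 25 listed genes was 138 and 109 TPM in mutant 1, against 141 and 123 TPM in the empty vector, and 15 of the 25 averaged under 1 TPM. Their part in the result was not tested. Btnl9, a butyrophilin-like membrane protein, fell by 1.31 on the log2 scale, as did Igfbp4, which binds insulin-like growth factors. Grm6, a glutamate receptor, fell by 1.27. The T cell receptor segments Trdv4 (log2 fold change -2.09) and Trav6-3 (-2.06) completed the 14, and as short members of families with near-identical copies their counts are uncertain. Of the 14 falls, 5 were called in each of the 10 fits that left out 1 library, namely Cpne7, Trdv4, Rab11fip4, Btnl9 and Adgre1. With constructs and batches by label, however, none of the 14 was called, with adjusted p from 0.126 for Grm6 to 0.736 for Otop1 and 0.38 for Rab11fip4. Without the batch in the model none of them was called either (0.0577 for Trdv4 and Rab11fip4 to 1 for Mcpt8 and Mcpt4). In the 6 libraries whose name and label match, with 1 mutant 1 library, Cpne7, Mcpt8, Muc13, Grm6 and Adgre1 were not called. Their log2 fold changes there were -2.98, -2.20, -1.60, -1.32 and -0.99. Igfbp4 was the least stable, called in 2 of the 10 fits, with adjusted p between 0.0502 and 0.27 in the others.

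For the other falls a call was lost as follows, by adjusted p of edgeR's quasi-likelihood test. Without the mutant 1 library of batch 1, Ccr2 had 0.0582, S1pr3 0.051, Muc13 0.114, Trav6-3 0.276, Igfbp4 0.27 and Grm6 0.307. Without the mutant 1 library of batch 2, Otop1 had 0.0595, S1pr3 0.0514, Trav6-3 0.059, Igfbp4 0.0886 and Grm6 0.258. Dropping the empty vector library of batch 1 gave 0.0736 for Muc13, 0.152 for Trav6-3 and 0.255 for Igfbp4, and dropping that of batch 2 gave 0.0944 for Igfbp4. Dropping either mutant 3 library left Trav6-3 at 0.0739 and 0.0674, Igfbp4 at 0.0891 and 0.0793 and Grm6 at 0.087 and 0.0737. Dropping either full-length library left Igfbp4 at 0.0502 and 0.0507. The direction was the same in each of these fits, which share most of their libraries.

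**Figure D3:**
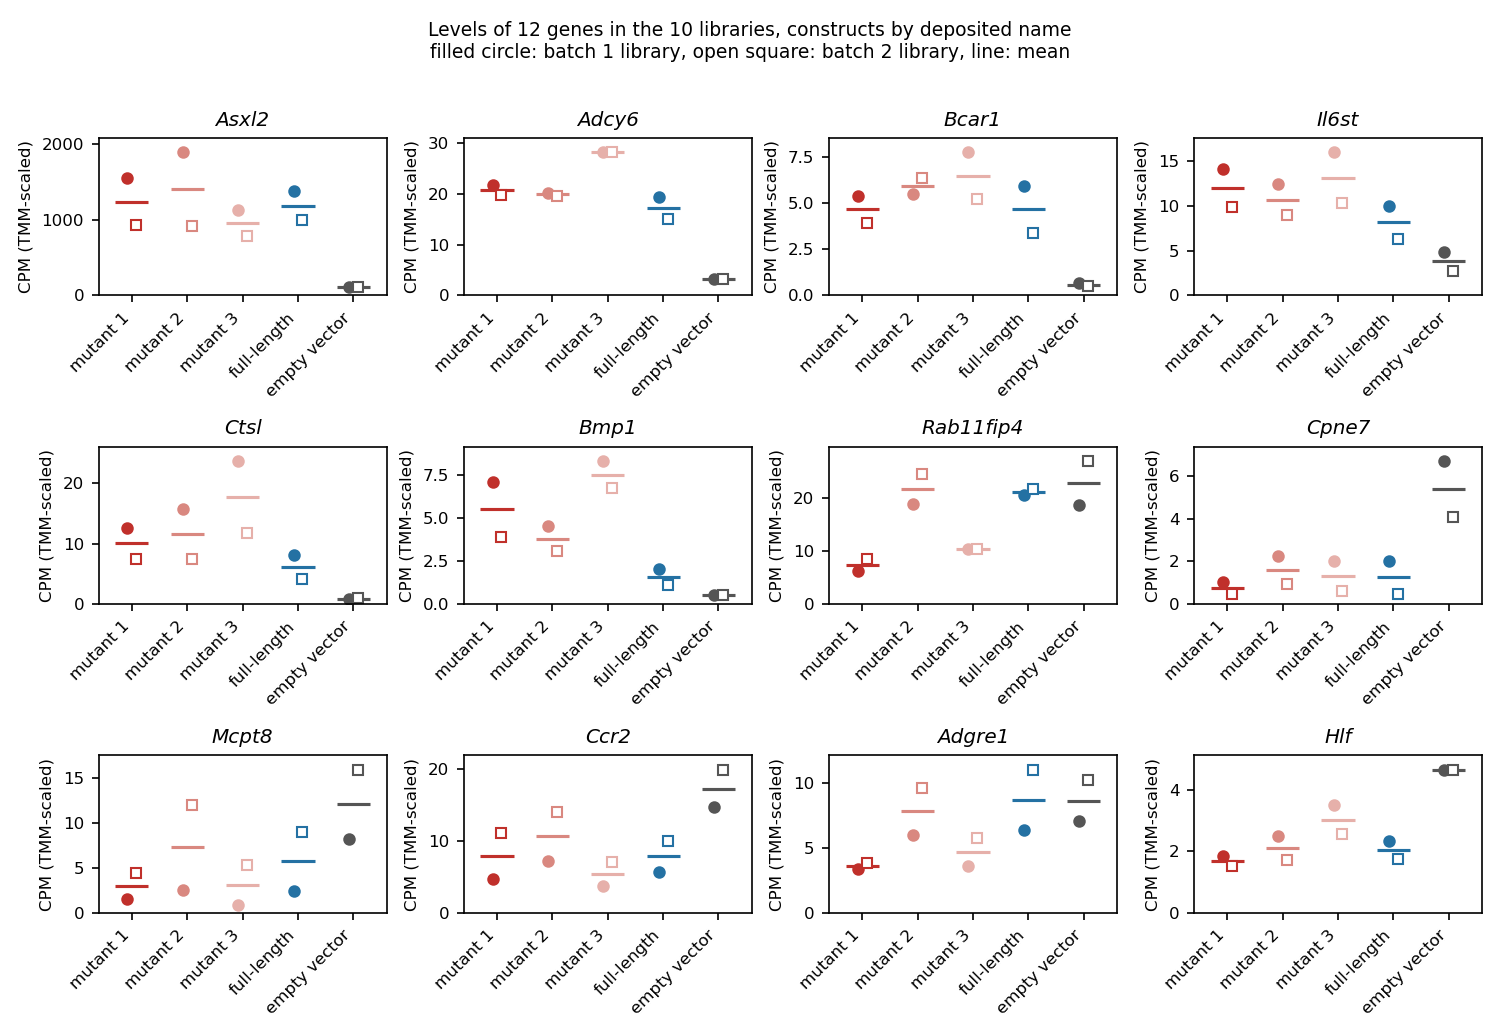
CPM after TMM scaling (y axis, linear, from 0) of 12 genes in each of the 10 libraries, with mutant 1 at the left and the empty vector at the right (filled circle, batch 1; open square, batch 2; line, mean of 2). The mutant 1 and empty vector points do not overlap in any panel, and for Rab11fip4 the mutant 2 and full-length libraries lie at the level of the empty vector.

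In their lineage, mutant 1 and empty vector libraries both carried mast cell transcripts at high levels. The mast cell and basophil list summed to 82220 and 74600 TPM in mutant 1, against 80730 and 83060 TPM in the empty vector. Cpa3, the mast cell carboxypeptidase, stood at 24400 and 25210 CPM in mutant 1, against 24810 and 28350 CPM in the empty vector (adjusted p = 0.618). Kit, the receptor for SCF, by which the cells had been chosen, stood at 3412 and 3038 CPM in mutant 1, against 2982 and 3194 CPM in the empty vector (adjusted p = 0.834). The values of both genes overlap between the groups. Of 34 mast cell and basophil genes tested, 1 rose and 3 fell, with a median log2 fold change of 0.009, against -0.012 over all genes tested. Beside Mcpt8 and Mcpt4, the leukotriene synthase gene Ltc4s fell, at 15.6 and 17.6 CPM in mutant 1, against 23.6 and 24.04 CPM in the empty vector (adjusted p = 0.0471, and up to 0.355 in the 6 of 10 fits without 1 library that lost it, the highest without the mutant 1 library of batch 1). Cd200r3, a surface receptor of mast cells and basophils, rose by 0.26 on the log2 scale (adjusted p = 0.0351), a call that 9 of the 10 fits without 1 library lost, with adjusted p from 0.0507 without the mutant 2 library of batch 1 to 0.294 without the mutant 1 library of batch 1. Of the lists for other lineages, neutrophil (9 genes tested), eosinophil (3), lymphoid (10) and stromal and endothelial genes (9) had 0 members called by edgeR. At an unadjusted p under 0.05 they had 2, 1, 2 and 4 members, and DESeq2 called 1, 0, 0 and 2. The summed level of the 22 neutrophil genes was 28.8 and 240.3 TPM in mutant 1, against 75.03 and 392 TPM in the empty vector, lower in mutant 1 within each batch and higher in batch 2 for both. The members did not all follow this sum. Of the 9 tested, 6 had a positive log2 fold change and 3 a negative one. Their median was 0.122 in the fit, with 0.177 within batch 1 and -0.037 within batch 2. The part of the neutrophil genes in the results was not tested. In these cells 23 of 24 lymphoid genes averaged under 1 TPM.

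Among 25 tested stem and progenitor genes, 4 rose and 1 fell, where 3.25% of all genes tested rose and 0.921% fell, with a median log2 fold change of 0.012. Procr, the endothelial protein C receptor of blood stem cells, stood at 2.17 and 1.12 CPM in mutant 1, against 0.188 and 0.161 CPM in the empty vector (log2 fold change 3.15 ± 0.33; adjusted p = 0.00144 by edgeR). Egfl7, a secreted protein of endothelium and stem cells, stood at 3.64 and 3.68 CPM in mutant 1, against 1.49 and 1.17 CPM in the empty vector (1.47 ± 0.18; adjusted p = 0.00275). Hlf, a transcription factor of stem cells, went the other way, at 1.84 and 1.54 CPM in mutant 1, against 4.63 and 4.66 CPM in the empty vector (-1.48 ± 0.19; adjusted p = 0.00329). All 3 are low in these cells, and for each the groups lie apart. Angpt1, a ligand made by progenitor and mast cells, rose at 316 and 344 CPM in mutant 1, against 212 and 256 CPM in the empty vector (0.50 ± 0.08; adjusted p = 0.0104), and so did Msi2, an RNA-binding protein of stem cells (0.32 ± 0.06; adjusted p = 0.017). Hlf was not called without the mutant 1 library of batch 1 (0.0616), while Procr and Egfl7 were called in each of the 10 such fits. Angpt1 and Msi2 were not called without the mutant 1 library of batch 1 (0.123 and 0.201) or batch 2 (0.0682 and 0.129) or the empty vector library of batch 1 (0.0761 and 0.105). None of the 9 tested HoxA and Meis genes passed the edgeR test (3 at an unadjusted p under 0.05, and 2 called by DESeq2), and Meis1 stood at 83.4 and 82.8 CPM in mutant 1, against 87.4 and 83.6 CPM in the empty vector.

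Platelet and erythroid genes gave calls that rest on single libraries or small changes. Ppbp, the platelet basic protein, stood at 4.74 and 0 CPM in mutant 1, against 0 and 0 CPM in the empty vector, and at no more than 0.226 CPM in the 9 libraries other than the mutant 1 library of batch 1. It was called at an adjusted p of 0.0163, but the value is that of 1 library, and without it the adjusted p was 1. Without the empty vector library of batch 1 it was 0.811, and without either mutant 3 library 0.0554 and 0.0505. Selp, the platelet and endothelial adhesion molecule P-selectin, behaved alike, at 1.81 and 0.0334 CPM in mutant 1, against 0.132 and 0 CPM in the empty vector (adjusted p = 0.0447, and 0.892 without the same mutant 1 library). Selp was called in 2 of the 10 fits without 1 library, the lowest adjusted p in the others being 0.0565, without the mutant 1 library of batch 2. In the same mutant 1 library Pf4 stood at 2.61 CPM and Thbs1 at 1.19 CPM, both platelet genes, against no more than 1.29 and 0.179 CPM in the others, and neither passed the test (adjusted p = 0.0624 and 0.546). Pf4 and Thbs1 were looked at after their values were seen. The remaining 15 of 17 tested megakaryocyte genes were not called. Epor, the erythropoietin receptor, was the 1 of 18 erythroid genes called, at 6.41 and 5.25 CPM in mutant 1, against 3.15 and 3.08 CPM in the empty vector (log2 fold change 0.90 ± 0.18; adjusted p = 0.0256 by edgeR). Epor was called in 6 of the 10 fits without 1 library and lost without either mutant 1 library (0.257 and 0.0877) or either empty vector library (0.14 and 0.0533).

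Of 32 tested Polycomb genes, whose products place or read the mark that BAP1 removes or the related histone H3 mark, 5 rose and 1 fell, where 3.25% of all genes tested rose and 0.921% fell, and the median log2 fold change was 0.023. Cbx6, a chromodomain subunit, stood at 109 and 93.1 CPM in mutant 1, against 79.8 and 69.3 CPM in the empty vector (0.44 ± 0.06; adjusted p = 0.00581 by edgeR). Rybp, a subunit of the variant complexes, stood at 37.6 and 41.4 CPM in mutant 1, against 27.7 and 32.02 CPM in the empty vector (0.41 ± 0.07; adjusted p = 0.0103). Pcgf5, a ring finger subunit, stood at 12.04 and 13.2 CPM in mutant 1, against 7.91 and 9.25 CPM in the empty vector (0.56 ± 0.10; adjusted p = 0.0194). For each the groups lie apart, by less than 1.5-fold. The chromodomain genes Cbx7 (0.57) and Cbx2 (0.54) rose as well, and Phc1, a polyhomeotic subunit, fell by 0.39. The catalytic subunit Ezh2 stood at 63.1 and 66.6 CPM in mutant 1, against 67.4 and 64.2 CPM in the empty vector, and Bmi1 at 46.9 and 54.6 CPM in mutant 1, against 56.7 and 56.5 CPM in the empty vector (adjusted p = 0.919 and 0.241). Without the mutant 1 library of batch 1 or of batch 2 the calls of Cbx6 (0.0783 and 0.0677), Rybp (0.121 and 0.0921) and Pcgf5 (0.157 and 0.164) were lost, and without the empty vector library of batch 1 those of Rybp (0.065) and Pcgf5 (0.121). Cbx7, Cbx2 and Phc1 were called in 7, 4 and 5 of the 10 fits without 1 library, with adjusted p up to 0.204 for Cbx7 and 0.27 for Phc1 without the mutant 1 library of batch 1 and 0.253 for Cbx2 without that of batch 2.

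Genes of cytokine reception and cell adhesion were among those called. Il6st, the gp130 chain shared by receptors of the IL6 family, stood at 14.1 and 9.88 CPM in mutant 1, against 4.82 and 2.77 CPM in the empty vector (1.68 ± 0.11; adjusted p = 0.000223 by edgeR). It and Epor were the 2 of 17 tested growth factor receptors that rose, with 0 that fell. Il6ra, the IL6-binding chain, stood at 2.38 and 0.418 CPM in mutant 1, against 0.377 and 0.321 CPM in the empty vector (adjusted p = 0.108), with 1 high library. Bcar1, a scaffold of integrin signalling, stood at 5.42 and 3.93 CPM in mutant 1, against 0.678 and 0.496 CPM in the empty vector (2.99 ± 0.26; adjusted p = 0.000638). Bcar1, Actn1 and Ptk2, the focal adhesion kinase, were the 3 of 27 focal adhesion and actin linkage genes that rose, and 0 fell, although the median of the list was -0.010. Ptk2 stood at 9.74 and 4.10 CPM in mutant 1, against 3.86 and 2.89 CPM in the empty vector (0.92 ± 0.20; adjusted p = 0.0392), and 7 of the 10 fits without 1 library lost it, with adjusted p up to 0.365 without the mutant 1 library of batch 1. Among 19 integrin genes, Itga3 (2.85 ± 0.37; adjusted p = 0.00332) and Itgb1 (0.26 ± 0.05; adjusted p = 0.0326), which encode 2 chains of one laminin receptor, rose, while Itgal (-1.07 ± 0.18; adjusted p = 0.0157) and Itga4 (-0.60 ± 0.12; adjusted p = 0.0365), chains of leukocyte integrins, fell. Itga3 remained low, at 1.47 and 0.585 CPM in mutant 1, against 0.188 and 0.0876 CPM in the empty vector. Itgal stood at 4.17 and 11.9 CPM in mutant 1, against 11.6 and 19.03 CPM in the empty vector, so that its groups overlap across batches. The call of Itgal was lost without the mutant 1 library of batch 1 (0.175) or batch 2 (0.0562), and that of Itgb1 in 8 of the 10 fits, with adjusted p up to 0.323 without the mutant 1 library of batch 1. Itga4 was called in 5 of the 10, with adjusted p up to 0.226 without the mutant 1 library of batch 2, and Itga3 in each of them.

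The second messenger and lysosome lists each had few calls, all upward. In the list of 18 tested genes of cyclic AMP synthesis and breakdown, Adcy6 and the phosphodiesterase gene Pde8a rose; a phosphodiesterase degrades cyclic AMP. Pde8a stood at 16.6 and 11.5 CPM in mutant 1, against 5.65 and 2.54 CPM in the empty vector (1.83 ± 0.20; adjusted p = 0.00275 by edgeR). Of 25 lysosomal genes, Ctsl rose and so did Ctsb, the protease cathepsin B (0.34 ± 0.06; adjusted p = 0.0162), and Lamp1, a lysosomal membrane protein (0.33 ± 0.07; adjusted p = 0.0401). Both of the weaker changes lost the call without the mutant 1 library of batch 1 (0.196 for Ctsb and 0.307 for Lamp1), of batch 2 (0.119 and 0.232) or the empty vector library of batch 1 (0.0963 and 0.113). Lamp1 was lost too without the empty vector library of batch 2 (0.0926) or either mutant 2 library (0.0515 and 0.0676). Among 17 regulators of Ras, Rasgef1a rose and the inactivator Rasa2 (-0.84 ± 0.16; adjusted p = 0.0221) and the exchange factor Rasgrp1 (-0.44 ± 0.09; adjusted p = 0.0274) fell. Rasa2 was lost without either mutant 1 library (0.0586 and 0.206) or either empty vector library (0.134 and 0.0517), and Rasgrp1 in 5 of the 10 fits, with adjusted p up to 0.286 without the mutant 1 library of batch 1. Rxra, a nuclear receptor, stood at 28.7 and 25.6 CPM in mutant 1, against 13.8 and 15.7 CPM in the empty vector (0.88 ± 0.10; adjusted p = 0.00227), and was called in each fit without 1 library. In its list of 21 nuclear receptor and target genes, Fabp5, a fatty acid carrier with near-identical copies in the genome, rose by 0.76 (adjusted p = 0.0486) and Angptl4, a lipase inhibitor, fell by 0.69 (adjusted p = 0.0114). Fabp5 was called in 2 and Angptl4 in 7 of the 10 fits, the highest adjusted p being 0.35 for Fabp5 without the mutant 1 library of batch 2 and 0.163 for Angptl4 without that of batch 1.

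Glycolysis and hypoxia genes stood higher in mutant 1 with few calls. Of 35 tested, 2 rose and 0 fell by edgeR, 9 had an unadjusted p under 0.05, and DESeq2 called 7. A positive log2 fold change was found for 33 of them, where 8445 of all 17810 genes tested had one. The median was 0.50 (0.49 within batch 1 and 0.44 within batch 2 on log2(CPM + 1)), against -0.012 over all genes tested. Eno2, an enolase, stood at 5.97 and 3.13 CPM in mutant 1, against 1.86 and 1.42 CPM in the empty vector (1.41 ± 0.17; adjusted p = 0.00227 by edgeR). Pfkm, a phosphofructokinase, stood at 37.3 and 30.3 CPM in mutant 1, against 25.6 and 23.9 CPM in the empty vector (0.44 ± 0.07; adjusted p = 0.00876). Slc2a1, the main glucose transporter of blood cells, stood at 164 and 158 CPM in mutant 1, against 115 and 105 CPM in the empty vector, and did not pass (adjusted p = 0.0562). Pdk1, a kinase that limits pyruvate entry into mitochondria, stood at 40.3 and 31.2 CPM in mutant 1, against 19.5 and 8.68 CPM in the empty vector (adjusted p = 0.27). The list's summed level moved with the batch as well, at 11720 and 7425 TPM in mutant 1, against 9139 and 6184 TPM in the empty vector. Against mutants 2 and 3 its median was -0.24, with 0 of 35 called. Pfkm was lost without the mutant 1 library of batch 1 (0.141) or the empty vector library of batch 1 (0.0601), whereas Eno2 was called in each fit without 1 library. The median of the list lay between 0.47 and 0.52 over these 10 fits.

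Genes of ribosome biogenesis and MYC targets lay on the other side. All 31 tested had a negative log2 fold change, where 9363 of all 17810 genes tested had one. The median was -0.22 (-0.33 within batch 1 and -0.09 within batch 2). By edgeR 1 passed the test, 23 had an unadjusted p under 0.05, and DESeq2 called 7. Other lists lay almost wholly below 0 too, with 29 of 30 mitosis genes and 28 of 30 ATF4 and unfolded protein response genes. Leaving out 1 library moved this median between -0.31, without the empty vector library of batch 2, and -0.12, without that of batch 1. The gene that passed was Srm, the spermidine synthase, at 103 and 141 CPM in mutant 1, against 140 and 164 CPM in the empty vector (-0.33 ± 0.07; adjusted p = 0.0383 by edgeR). Srm was called in 5 of the 10 fits without 1 library, with adjusted p up to 0.379 without the mutant 1 library of batch 1. Npm1, the nucleolar protein nucleophosmin, stood at 392 and 472 CPM in mutant 1, against 481 and 528 CPM in the empty vector (adjusted p = 0.0916). In the stress lists, Xbp1, a transcription factor of the unfolded protein response, stood at 335 and 350 CPM in mutant 1, against 494 and 458 CPM in the empty vector (-0.47 ± 0.08; adjusted p = 0.0142). Xbp1 and Sesn2, a stress-induced sestrin (-0.41 ± 0.09; adjusted p = 0.0398), were the 2 of 30 tested genes of the ATF4 and unfolded protein response list that fell. Sesn2 and Eda2r, a TNF receptor family member (-0.70 ± 0.13; adjusted p = 0.017), were the 2 of 26 p53 targets that fell, and 0 rose in either list. Without the mutant 1 library of batch 1, of batch 2 or the empty vector library of batch 1, Xbp1 (0.192, 0.0816 and 0.0843), Sesn2 (0.348, 0.161 and 0.192) and Eda2r (0.143, 0.161 and 0.0761) were not called. Sesn2 was lost as well without the empty vector library of batch 2 (0.103) or either mutant 3 library (0.0771 and 0.0657).

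Cytokine genes moved in both directions. Of 20 tested, Tnfsf9 (0.61 ± 0.12; adjusted p = 0.0203 by edgeR) and the chemokine Ccl3 (1.03 ± 0.21; adjusted p = 0.0291) rose, and Il6 (-0.36 ± 0.07; adjusted p = 0.0282), Ccl17 (-1.47 ± 0.30; adjusted p = 0.0286) and Tnfsf4 (-1.05 ± 0.23; adjusted p = 0.039) fell. Il6, which the medium also supplied as protein, stood at 56.0 and 52.3 CPM in mutant 1, against 68.7 and 69.9 CPM in the empty vector. Tnfsf4, the ligand of OX40, stood at 2.81 and 2.67 CPM in mutant 1, against 5.52 and 5.87 CPM in the empty vector. Without the mutant 1 library of batch 1 the adjusted p was 0.188 for Tnfsf9, 0.209 for Il6 and 0.269 for Ccl17, and without that of batch 2 it was 0.155, 0.194 and 0.146 for the same genes. Without the empty vector library of batch 1 it was 0.0639 for Tnfsf9 and 0.171 for Ccl17, and without that of batch 2 it was 0.0633 for Tnfsf9 and 0.104 for Il6. Il6 was lost too without either mutant 3 library (0.0538 and 0.0562). Ccl3 was called in 4 and Tnfsf4 in 2 of the 10 fits, with adjusted p up to 0.262 without the mutant 1 library of batch 1 and up to 0.284 without that of batch 2. The transcription factor gene Tcf4 was the 1 of 11 dendritic cell and class II genes called (1.19 ± 0.24; adjusted p = 0.0286), with groups that overlap across batches, and 6 of the 10 fits without 1 library lost it, with adjusted p up to 0.184 without the mutant 1 library of batch 2. No interferon response gene (23 tested), cytokine feedback gene (28) or respiratory chain gene (29) was called by edgeR, with 5, 6 and 2 at an unadjusted p under 0.05 and 2, 1 and 0 called by DESeq2.

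**Figure D4:**
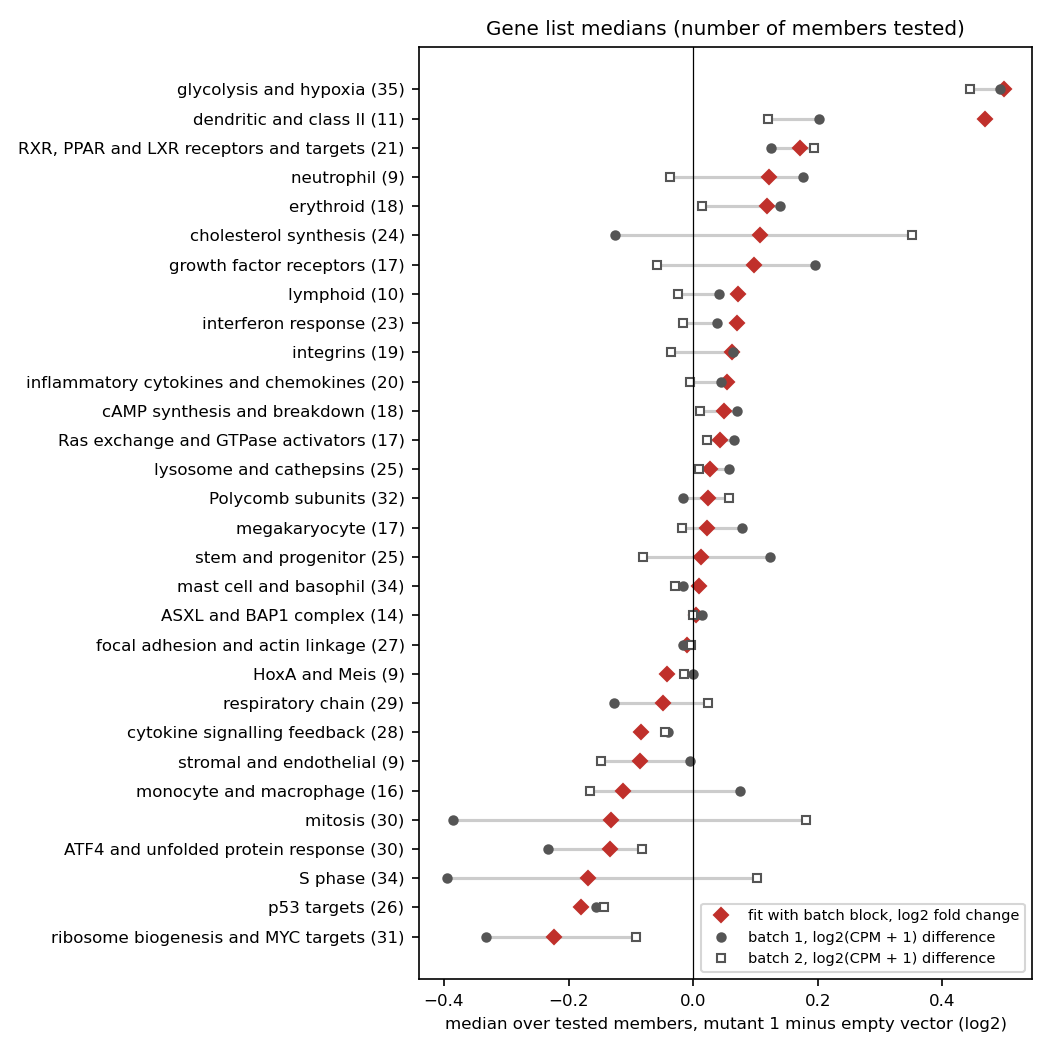
Median difference between mutant 1 and the empty vector over the tested members of each gene list with at least 5 of them (x axis, log2), from the fit with the batch block (diamonds) and within batch 1 (circles) and batch 2 (squares) on log2(CPM + 1). In this fit the glycolysis and hypoxia list lies highest, at 0.50, and the ribosome biogenesis list lowest, at -0.22. Without the mutant 1 library of batch 2 the glycolysis list was at 0.485, and dendritic and class II genes, at 0.513, lay higher. Without the empty vector library of batch 1 the ribosome biogenesis list was at -0.12, and other lists, such as p53 targets at -0.15, lay lower. The S phase, mitosis and cholesterol lists have batches on opposite sides of 0, each at least 0.1 away from it. Some other lists also lie on both sides, with a batch nearer to 0 than that.

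Against mutants 2 and 3 together, 0 of 17810 genes (0.0%) were called by edgeR, while 1086 (6.09%) had an unadjusted p under 0.05 and DESeq2 called 54. The 5 genes with the smallest p did not pass this test, and their calls depend on the test and the libraries used. Eno2 stood at 5.97 and 3.13 CPM in mutant 1, against at least 6.84 CPM in each of the 4 libraries of mutants 2 and 3 (log2 fold change -1.19 ± 0.14; adjusted p = 0.0748). Cavin1, a coat protein of caveolae, stood at 17.6 and 13.04 CPM in mutant 1, against 21.9 to 30.1 CPM in mutants 2 and 3 (-0.84 ± 0.10; adjusted p = 0.0748). Rab11fip4 stood at 6.28 and 8.53 CPM in mutant 1, against 10.4 and 10.5 CPM in mutant 3 and 18.7 and 24.5 CPM in mutant 2 (-1.03 ± 0.12; adjusted p = 0.0748). In these 3 genes the mutant 1 libraries lie below the other 4, which their choice by smallest p favours. Cdk18, a cyclin-dependent kinase (-0.48; adjusted p = 0.226), and Grik5, a glutamate receptor subunit (-0.48; adjusted p = 0.249), came next. DESeq2 called all 5, with adjusted p from 3.63e-10 for Rab11fip4 to 0.000602 for Cdk18, as did edgeR with no filter on low counts (0.00414 for Eno2 and Cavin1 to 0.0311 for Cdk18 and Grik5). In the libraries of the constructs compared alone, edgeR called 25 genes, among them Eno2 (0.00519), Cavin1 (0.0212) and Rab11fip4 (0.0213). These 3 also passed without the empty vector library of batch 1 (0.0167, 0.0366 and 0.0473) or of batch 2 (0.0153, 0.0217 and 0.0392). By label they did not (0.548, 0.874 and 0.927), and without the batch in the model all 5 had an adjusted p of 1.

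Against full-length ASXL2, 35 genes were higher and 52 lower in mutant 1, 87 of 17810 (0.488%, with 0.197% higher and 0.292% lower). Each had the same sign in both batches, which their choice with a test on the same libraries favours. Itgb2, the beta chain of leukocyte integrins, stood at 23.1 and 20.3 CPM in mutant 1, against 57.5 and 53.2 CPM with full-length ASXL2 (-1.35 ± 0.08; adjusted p = 0.000746 by edgeR) and 20.1 and 15.1 CPM in the empty vector. Rab11fip5, another Rab11 effector, stood at 3.18 and 4.31 CPM in mutant 1, against 17.2 and 23.1 CPM with full-length ASXL2 (-2.43 ± 0.17; adjusted p = 0.00109) and 1.22 and 2.51 CPM in the empty vector. Rab11fip4 was lower too (-1.53 ± 0.13; adjusted p = 0.00401), against 20.6 and 21.7 CPM with full-length ASXL2. The 2 effectors differed in the other comparison, since Rab11fip5 rose against the empty vector (1.03 ± 0.18; adjusted p = 0.0134) and Rab11fip4 fell. That call of Rab11fip5 was lost without the mutant 1 library of batch 1 (0.134) or batch 2 (0.0595) or the empty vector library of batch 1 (0.0696).

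Pitpnm1, a phosphatidylinositol transfer protein, stood at 35.7 and 36.0 CPM in mutant 1, against 69.0 and 63.6 CPM with full-length ASXL2 (-0.89 ± 0.08; adjusted p = 0.00401 by edgeR) and 64.2 and 55.7 CPM in the empty vector. Arhgef40 stood at 14.5 and 16.7 CPM in mutant 1, against 28.1 and 33.7 CPM with full-length ASXL2 (-0.98 ± 0.08; adjusted p = 0.00401). Cavin1 (-1.16 ± 0.11; adjusted p = 0.0051) and Sec14l2, a lipid-binding protein (-2.67 ± 0.28; adjusted p = 0.00928), were also lower. Auts2, which encodes a partner of a variant Polycomb complex, was the 1 of these 8 genes that was higher, at 8.25 and 5.82 CPM in mutant 1, against 2.69 and 1.95 CPM with full-length ASXL2 (1.60 ± 0.16; adjusted p = 0.00928). Against the empty vector, mutant 1 did not differ by the edgeR test in Auts2 (log2 fold change 0.26; adjusted p = 0.473). Arhgef40 was higher in mutant 1 than in the empty vector (0.62; adjusted p = 0.00552), a call lost without either mutant 1 library. For all 8 the mutant 1 and full-length libraries lie apart, which their choice by smallest p favours. The full-length comparison shares its mutant 1 libraries with the one against the empty vector. The count of calls was 2 without the mutant 1 library of batch 1, 4 without that of batch 2, 29 without the full-length library of batch 2, and 42 and 45 without the mutant 3 libraries. Itgb2 and Rab11fip5 passed in each fit without 1 library, and the other 6 had adjusted p from 0.101 to 0.108 without the mutant 1 library of batch 1 and from 0.0554 to 0.109 without that of batch 2.

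**Figure D5:**
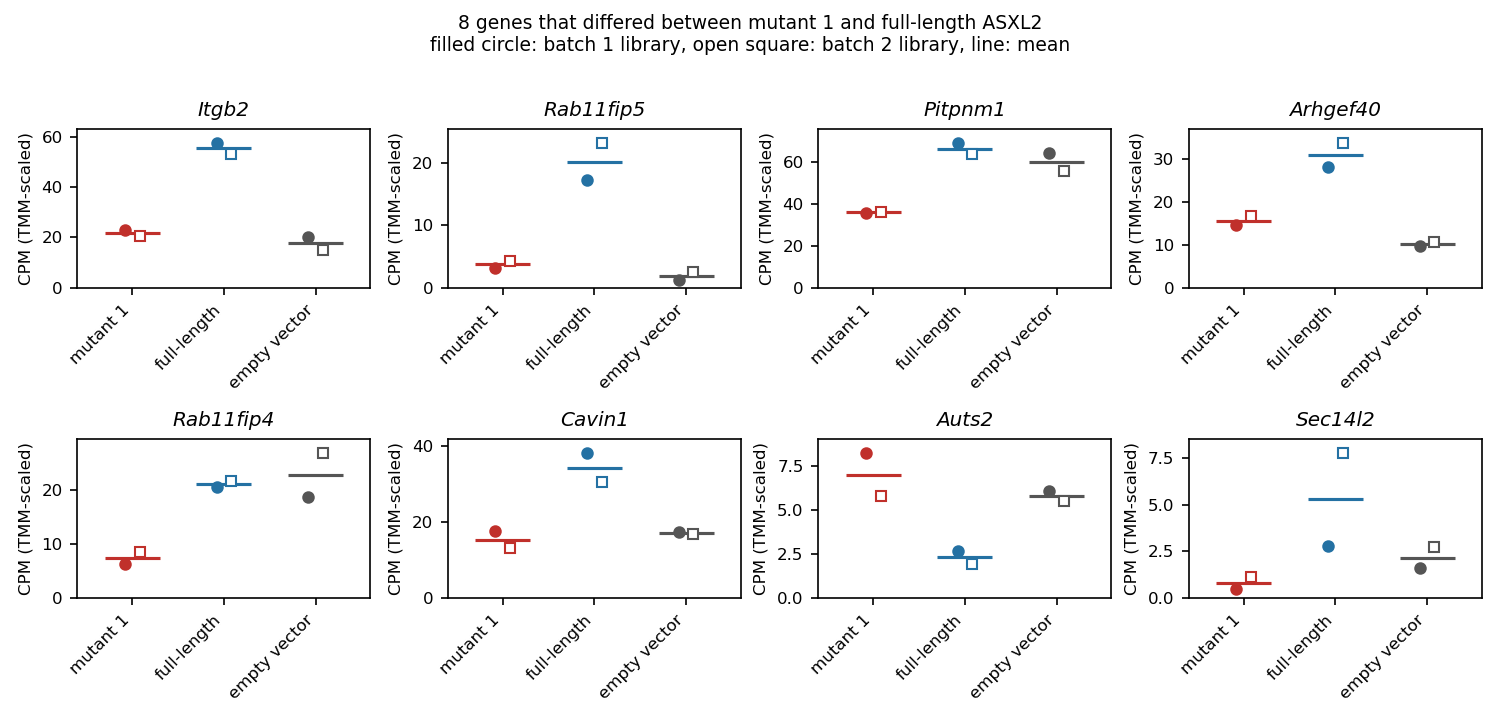
CPM after TMM scaling (y axis, linear, from 0) of the 8 genes with the smallest p between mutant 1 and full-length ASXL2, with mutant 1 at the left, full-length in the middle and the empty vector at the right (filled circle, batch 1; open square, batch 2; line, mean of 2). Mutant 1 lies below full-length in 7 genes and above it in Auts2, and for Itgb2, Cavin1 and Auts2 it lies near the empty vector.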

How the data were processed

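PolyA RNA-seq of 10 libraries was used. The deposited tables give an estimated count and a TPM per transcript, in the columns that kallisto writes, per the file headers. The submitters' processing notes name kallisto, DESeq2 and mm10, with no versions. Transcript index, trimming and strand setting are not stated there, so reads of antisense partners or near-identical copies cannot be told apart. The authors' estimated counts, and likewise their TPM values, were summed per gene through GENCODE M21 of GRCm38 (99.23% of 115088 transcripts matched, 888 did not), and the counts rounded. Constructs and batches came from the names of the deposited tables.

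All 10 libraries entered 1 edgeR 4.0.16 fit (R 4.3.3; TMM, default filter with a minimum count of 10, robust quasi-likelihood test, residual degrees of freedom 4) of 5 constructs with the batch as a block. P-values were adjusted by Benjamini-Hochberg over 17810 genes, called under 0.05. Within-batch differences used log2(CPM + 1). The pairing comes from the batch in the names: deviations from construct means correlated at 0.434 to 0.608 in all 10 pairs of constructs by name, and at -0.145 to 0.578 by label. For genes under 10 counts counting error is large. Alternatives were no block, constructs by label, DESeq2 1.42.0 and its size factors, other filters, fewer libraries, limma 3.58.1 on log2(TPM + 1), whose pseudocount of 1 understates changes of low genes, and leaving out each library. Fits were tested on simulated counts.

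Named genes were, among called genes of at least 5 CPM in the higher group, with 1 sign in both batches and no predicted symbol, the 14 largest rises and 14 largest falls, then up to 3 called members of each of 31 lists with the smallest p, Asxl1, Asxl2, Asxl3 and Bap1, and the 8 genes (5 where none was called) with the smallest p in the other comparisons. Other called list members are named to account for counts. Cpa3, Kit, Meis1, Ezh2, Bmi1, Il6ra, Slc2a1, Pdk1 and Npm1, none of them called, were named outside this rule and are no support for their lists. The members and lists were chosen with earlier results of these data known. Of 748 listed symbols 747 were found. The RefSeq promoter table held 555 of the 743 called symbols (74.7%, under 80%), so no promoter property was compared over the set. Figures were drawn with matplotlib 3.10.9.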

Additional observations from a re-analysis of the deposited data

Results flagged for a closer look

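In 3 gene lists the median difference between mutant 1 and the empty vector had opposite signs in the batches and a size of at least 0.1 in each, on log2(CPM + 1). For the 34 S phase genes, which include replication factors, it was -0.395 in batch 1 and 0.102 in batch 2. For the 30 mitosis genes it was -0.386 in batch 1 and 0.181 in batch 2. For the 24 cholesterol synthesis genes it was -0.126 in batch 1 and 0.351 in batch 2. The difference between the batches was not tested, since each holds 1 library per construct, and edgeR called 0 of their members in the fit over both batches, as did DESeq2, with 0, 1 and 0 members at an unadjusted p under 0.05. Further lists had opposite signs with a median under 0.1 in size in a batch. Among them were growth factor receptors (0.195 in batch 1 and -0.058 in batch 2) and stem and progenitor genes (0.124 and -0.081).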

How the results depend on the processing

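With no replicate block 26 genes were called against the empty vector and 0 against full-length ASXL2. With constructs and batches by label the counts were 46 against the empty vector, 1 against mutants 2 and 3 and 0 against full-length ASXL2. Limma on log2(TPM + 1) called 171, 2 and 35, in the same order. The 6 libraries whose name and label match gave 366 against the empty vector and 48 against full-length ASXL2, with 1 mutant 1 library, assumed to vary like the other groups, and none could be fitted against mutants 2 and 3. DESeq2 called 1100 against the empty vector, 54 against mutants 2 and 3 and 276 against full-length ASXL2. With no filter 11 genes were called against mutants 2 and 3 and 142 against full-length ASXL2, and with only the libraries compared 25 and 300. Leaving out 1 library gave 163 to 1009 calls against the empty vector, 0 to 3 against mutants 2 and 3 and 2 to 128 against full-length ASXL2. The cause of these shifts was not tested.

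Of 66 named genes called against the empty vector, all 66 kept their sign in every alternative run, 25 were called in each of the 10 fits without 1 library, and Asxl2, Anks6, Adcy6 and Bcar1 were called in all 19 alternatives. The 66 were chosen as called, and the alternatives reuse the same libraries, so a kept sign is largely fixed by the choice. Not every gene entered each alternative: Ppbp and Selp were tested in 16 of them, Itga3 in 17 and Ccl17 in 18. With 1 library per construct and batch, a library that stands apart cannot be told from its construct.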
